A study of Homo sapiens with 18 samples.

Results

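The genes described here are 40 genes of DNA replication and the E2F programme, chosen by matching their symbols in the count table, where they are 40 of 58870 listed genes. They comprise 10 genes of origin licensing, 5 of helicase activation, 5 of the sliding clamp and its loader, 6 of the replicative polymerases and primase, 3 that handle single strands and Okazaki fragments, 4 of nucleotide supply, 4 for cyclin E and E2F factors, and 3 of maintenance methylation and repair. RNA was sequenced from 3 human melanoma cell lines, WM164, SKMEL28 and A375, each overexpressing either GFP as the control or MAFG, with 3 libraries in each of the 6 groups and 18 libraries in all. MAFG is a small basic leucine zipper protein that binds DNA as a dimer and has no activation domain of its own. According to the study's methods, both the GFP and the MAFG sequence were driven by an EF1α promoter in a lentiviral vector with blasticidin resistance, and MAFG carried a Myc-DDK tag. Transduced cells were selected with blasticidin over a range of doses that is not given by line or construct. The study compares MAFG with GFP within each line to ask how MAFG overexpression alters melanoma cells. Nothing in the labels says that the libraries of a group come from separate cultures, so the p-values measure the spread between these libraries, which may be technical.

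Before a cell divides, its origins of replication are licensed in G1 phase when the origin recognition complex, CDC6 and CDT1 load the MCM helicase onto DNA. In S phase the helicase is activated by CDC45, the GINS complex and MCM10, and the polymerases, the clamp PCNA and its loader RFC copy the DNA from nucleotides that ribonucleotide reductase and thymidylate synthase provide. Most of these genes are transcribed late in G1 through E2F factors. RB proteins hold these factors back until the kinases of G1 cyclins, cyclin E among them, phosphorylate the RB proteins. The mRNA level of these genes is therefore widely read as a mark of cells that are entering or passing through S phase.

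E2F factors bind short sequences near the start of their target genes, and the promoters of 7 members are shown because they hold such letters upstream of the start and come from licensing, the clamp, the polymerases, nucleotide supply and the E2F factors. RefSeq's promoter table (GRCh38.p14, 250 bases before to 50 bases after each gene's start) held 36 of the 40 members, all but MCM4, MCM5, RPA2 and CCNE2. The letters TTTCCCGC, TTTGGCGC, TTTCGCGC or TTTGCCGC stood on either strand in 21 of the 36 promoters (58.3%) and in 908 of 27305 promoters of the whole table (3.33%). The sequences below run 5′ to 3′ on the strand of the gene, are 160 bases long and end just before the gene's annotated start, with the E2F letters of either strand in capitals. For POLA1 and PCNA that start lies 45 and 4 bases before the RefSeq start. They lie at chr16:88803629-88803788 (CDT1, plus strand), chr2:135876444-135876603 (MCM6, minus), chr20:5126627-5126786 (PCNA, minus), chrX:24693713-24693872 (POLA1, plus), chr18:657493-657652 (TYMS, plus), chr20:33686386-33686545 (E2F1, minus) and chr1:23531234-23531393 (E2F2, minus).
CDT1: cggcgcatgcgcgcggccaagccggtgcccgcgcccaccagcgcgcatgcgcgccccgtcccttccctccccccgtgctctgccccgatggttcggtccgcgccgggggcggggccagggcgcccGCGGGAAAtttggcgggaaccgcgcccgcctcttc
MCM6: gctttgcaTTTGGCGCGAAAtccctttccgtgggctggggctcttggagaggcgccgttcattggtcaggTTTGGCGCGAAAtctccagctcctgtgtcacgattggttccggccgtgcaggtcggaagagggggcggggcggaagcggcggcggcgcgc
PCNA: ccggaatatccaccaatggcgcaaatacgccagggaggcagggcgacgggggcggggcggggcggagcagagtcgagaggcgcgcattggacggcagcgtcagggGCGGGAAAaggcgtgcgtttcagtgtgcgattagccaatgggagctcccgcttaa
POLA1: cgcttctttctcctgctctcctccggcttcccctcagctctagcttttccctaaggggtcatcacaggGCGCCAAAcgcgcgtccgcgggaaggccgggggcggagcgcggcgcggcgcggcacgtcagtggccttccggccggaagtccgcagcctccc
TYMS: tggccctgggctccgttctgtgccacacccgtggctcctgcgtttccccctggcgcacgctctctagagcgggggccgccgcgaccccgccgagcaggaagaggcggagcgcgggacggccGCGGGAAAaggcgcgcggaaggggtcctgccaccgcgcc
E2F1: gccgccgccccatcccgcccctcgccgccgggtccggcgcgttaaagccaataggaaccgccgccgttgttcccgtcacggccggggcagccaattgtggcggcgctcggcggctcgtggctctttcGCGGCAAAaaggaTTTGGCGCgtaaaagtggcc
E2F2: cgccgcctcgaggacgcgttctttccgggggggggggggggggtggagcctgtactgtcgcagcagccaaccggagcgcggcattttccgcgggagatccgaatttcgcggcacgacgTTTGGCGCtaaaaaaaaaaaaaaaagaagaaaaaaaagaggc
MCM6 held the letters 4 times, as 2 overlapping pairs that begin 152 and 148 bases and 90 and 86 bases before the RefSeq start. E2F1 held them 33 and 20 bases before its own RefSeq start, so that the gene for the factor carries the letters its protein binds. In CDT1, TYMS, E2F2 and PCNA the letters began 35, 39, 42 and 59 bases before the RefSeq start, and in POLA1 137 bases before it. CCAAT letters were in 19 of the 36 promoters (52.8%) against 35.7% of all promoters. The letters TTTGAA, the core of the cell cycle homology region of mitotic genes, were in 1 member promoter, that of RRM1 (2.78%, against 15.4% of all), whereas 10 of 15 mitotic gene promoters held them (66.7%). TGACNNNGC, the core of the antioxidant response element to which small MAF proteins bind with their partners, was in 7 member promoters (19.4%) against 13.6% of all, and the E-box CACGTG was in 3 (8.33%) against 7.43%. All motifs were searched on both strands, and a match describes the letters only.

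The libraries held between 20122172 and 39025042 counts, and every member was counted at least 82 times in every library, the lowest being CCNE2 in a GFP library of WM164. All 40 members passed the filter on low counts in every comparison. The members took 0.119 to 0.144% of the counts in WM164 libraries, 0.216 to 0.230% in SKMEL28 and 0.402 to 0.461% in A375. Over all genes, log2 fold changes carried a median standard error of 0.110 (WM164), 0.119 (SKMEL28) and 0.176 (A375). Replicate libraries differed by more than sampling noise, with a chi-square per gene of 5.90 to 96.7, and MAFG replicate 1 of A375 stood apart from its 2 replicates (68.7 and 96.7, against 15.8 between those). MAFG mRNA rose by a log2 fold change of 1.04 in WM164 (adjusted p = 6.37e-08) and 0.64 in SKMEL28 (adjusted p = 0.000128, by the quasi-likelihood test of edgeR, with p-values adjusted after Benjamini and Hochberg). In A375 its log2 fold change was 0.80 without passing the test (adjusted p = 0.0655), although the MAFG libraries (42.8 to 60.3 CPM, read counts scaled to library size) all lay above the GFP libraries (26.3 to 36.5 CPM). Of the 6 melanocyte markers looked at, MITF, PMEL, MLANA, TYR, DCT and SOX10 were all expressed in GFP cells of WM164 and SKMEL28 (34.2 TPM or more, a level corrected for depth and gene length), while in A375 MLANA, TYR and DCT were listed at 0 TPM, PMEL was at 0 to 0.47 TPM, SOX10 at 2.24 to 3.22 TPM and MITF at 8.33 to 10.4 TPM. The 8 markers of leukocytes, endothelium and epithelium were at 0 to 0.39 TPM in GFP cells of all 3 lines.

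In GFP cells, the replication genes were lowest in WM164 and highest in A375. The median of the members' mean TPM, which corrects for gene length, was 7.20 for WM164, 11.9 for SKMEL28 and 27.0 for A375, and their summed TPM was 401 to 443, 961 to 997 and 1396 to 1833 per library, ranges that do not overlap. Of the 40 members, 37 were lower in WM164 than in A375 and 0 were higher (edgeR's quasi-likelihood test on all 18 libraries, adjusted p of 0.05 or less), where 71.5% of all tested genes differed, 34.6% lower and 36.9% higher. Against SKMEL28, 27 were lower in WM164 and 5 higher, where 56.8% of all genes differed (29% lower and 27.8% higher). Against A375, 29 were lower in SKMEL28 and 5 higher, where 68.6% of all genes differed (33.3% lower and 35.3% higher). Differences of more than 2-fold were found for 25, 13 and 18 members in these 3 comparisons, where 46.7%, 28.7% and 43.8% of all genes had them. The median log2 difference of the members was −1.17, −0.53 and −0.62 in these comparisons, against 0.08, 0.00 and 0.06 for all genes. Between such cultures, fewer cells in S phase and less mRNA per cell cannot be told apart, and the comparisons share the GFP libraries of a line. The TPM scale itself lay lower in WM164, by a median of −0.35 log2 over all genes against A375 and −0.42 against SKMEL28, so that TPM differences between lines are to be read against that shift.

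Between WM164 and A375, the widest differences were those of TYMS and UHRF1. TYMS, thymidylate synthase, which makes the thymidine nucleotide for DNA, was at 13.53, 13.27 and 13.63 TPM in the GFP libraries of WM164, at 58.42, 56.05 and 54.23 in SKMEL28 and at 174.23, 168.68 and 149.76 in A375. Its libraries fell into 3 separate ranges, and it was 8.29-fold higher in A375 than in WM164 (log2 difference of WM164 −3.05, standard error 0.11, adjusted p = 8.45e-16). UHRF1, which reads hemimethylated DNA behind the fork and recruits DNMT1, was at 5.32, 5.28 and 5.26 TPM in WM164, at 12.74, 13.03 and 11.84 in SKMEL28 and at 60.47, 53.35 and 54.1 in A375 (log2 difference of WM164 against A375 −3.02, adjusted p = 9.71e-16). RRM2, the regulated subunit of ribonucleotide reductase, was at 23.64, 23.29 and 30.3 TPM in WM164, at 152.59, 174.43 and 153.56 in SKMEL28 and at 203.99, 199.57 and 138 in A375. WM164 stood apart from both other lines for RRM2, whose A375 libraries spanned the SKMEL28 values (log2 difference of WM164 −2.42 against A375 and −2.03 against SKMEL28). DNMT1, the maintenance methyltransferase, followed the same order with mean levels of 36.2, 91.4 and 174 TPM in WM164, SKMEL28 and A375.

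Among the licensing factors, all 10 were lower in WM164 than in A375. MCM4 was the most abundant MCM subunit in every GFP group and the most abundant member in WM164 and A375, with 56.9 ± 7.69 TPM in WM164, 72.4 ± 6.54 in SKMEL28 and 214 ± 66.5 in A375 (SD, n = 3). MCM2, a subunit of the same ring, was at 10.8, 10.73 and 9.65 TPM in WM164, at 11.39, 10.32 and 9.83 in SKMEL28 and at 59.76, 58.26 and 53.4 in A375. Its level therefore separated A375 from the other lines (log2 difference of SKMEL28 against A375 −2.47, adjusted p = 5.44e-14), and it made up 13.3 ± 1.8% of the summed TPM of MCM2 to MCM7 in A375, 8.34 ± 0.88% in WM164 and 5.28 ± 0.32% in SKMEL28. Between WM164 and SKMEL28 the direction for MCM2 rests on the scale, with a log2 difference of 0.56 on counts (adjusted p = 0.000195) and −0.0144 on log2(TPM + 1). The direction for MCM4 rests on the scale too. Its mean TPM was lower in WM164 than in SKMEL28, but in the fit on counts SKMEL28 was at 0.78-fold the WM164 level. CDT1, which delivers the MCM ring to the origin, was at 6.28, 7.34 and 7.5 TPM in WM164, 5.61, 6.02 and 6.18 in SKMEL28 and 29.59, 30.02 and 22.27 in A375. CDC6, its partner in loading, had mean levels of 4.14, 15.6 and 21.6 TPM in the 3 lines in the same order, and PCNA, the sliding clamp, 23.4, 78.5 and 102 TPM.

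The E2F and cyclin E genes departed from that order. E2F2 was at 0.81, 0.98 and 1.39 TPM in WM164, at 3.55, 3 and 3.3 in SKMEL28 and at 1.39, 1.01 and 1.32 in A375. SKMEL28 was alone in its high level, with a log2 difference of 1.28 against A375 (adjusted p = 1.73e-06) and of −1.56 for WM164 against SKMEL28 (adjusted p = 2.59e-07). WM164 and A375 differed by −0.28 without passing the test (adjusted p = 0.176). E2F1 had mean levels of 2.67, 8.38 and 6.49 TPM in WM164, SKMEL28 and A375, with SKMEL28 higher than A375 by 0.33 log2 (adjusted p = 0.0348). CCNE2, a cyclin E gene, was at 1.08, 0.85 and 1.3 TPM in WM164, 5.99, 8.87 and 7.8 in SKMEL28 and 6.79, 7.13 and 7.02 in A375, so that WM164 lay below both (log2 difference −2.27 against SKMEL28 and −2.30 against A375) and SKMEL28 and A375 differed by −0.03 (adjusted p = 0.875). CCNE1, the other cyclin E gene, followed the same pattern with means of 1.78, 5.58 and 4.97 TPM.

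Over all 40 members, the mean TPM was highest in A375 and lowest in WM164 for 30, highest in SKMEL28 and lowest in WM164 for 7 (CDC45, RFC4, RRM1, CCNE1, CCNE2, E2F1 and E2F2), and highest in A375 and lowest in SKMEL28 for 3 (CDT1, RFC2 and TK1). In the fit on counts, 28 members had the order A375, SKMEL28, WM164, and for 17 of them every step between neighbours passed the test. The 3 members that did not pass between WM164 and A375 were RFC2 (−0.28, adjusted p = 0.0517), RFC4 (0.07) and E2F2 (−0.28). RFC2 and TK1, a subunit of the clamp loader and the thymidine kinase of the salvage pathway, were among the 5 that were higher in WM164 than in SKMEL28, by 1.39 and 1.43 log2. The other 3 were the licensing genes CDT1, MCM2 and MCM4, of which MCM2 and MCM4 had a lower mean TPM in WM164.

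**Figure D1:**
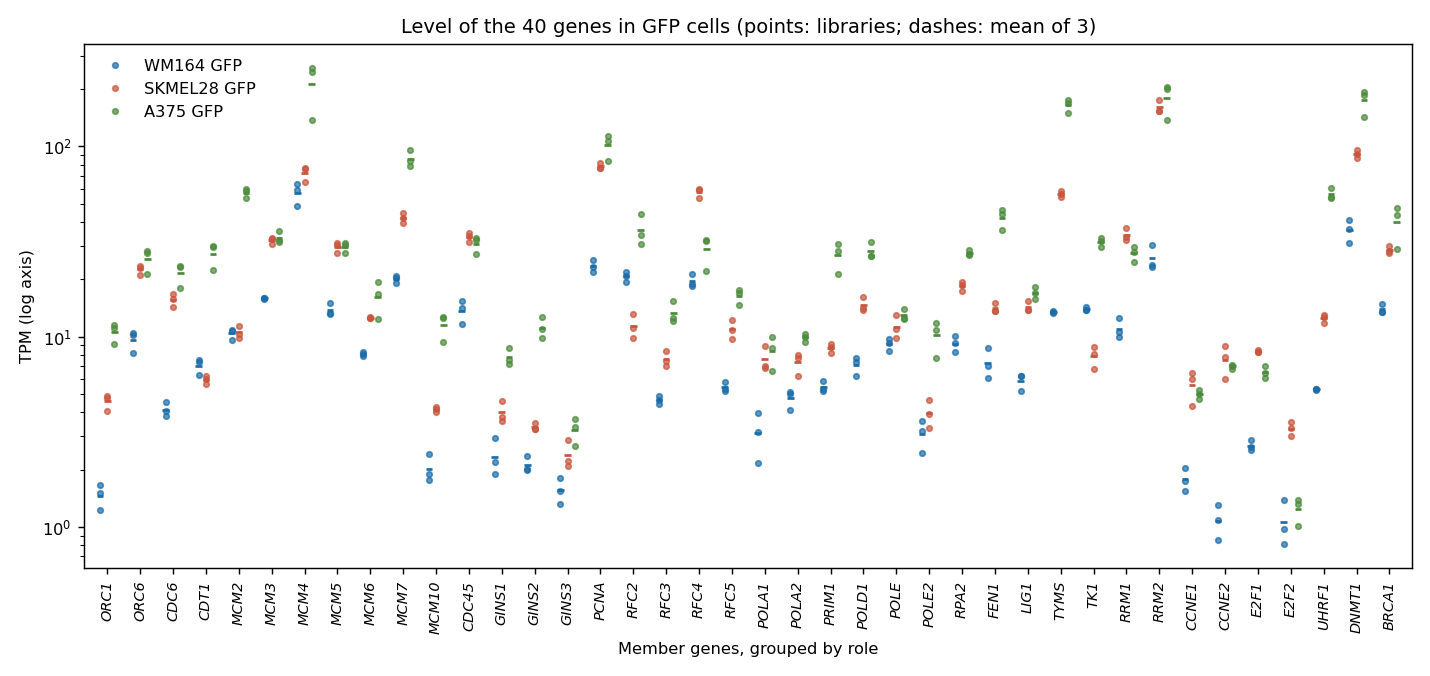
Level of each of the 40 genes in GFP cells, in TPM on a log axis, with a point for each of the 3 libraries of WM164, SKMEL28 and A375 and a dash for their mean, and genes grouped by role on the horizontal axis. For 30 genes the A375 mean is highest and the WM164 mean lowest, and E2F2 is among the 7 genes whose mean is highest in SKMEL28.

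With MAFG in WM164 cells, 11 of the 40 members fell and 0 rose, at an adjusted p of 0.05 or less. Of all 15919 tested genes 31.8% changed, 15.6% falling and 16.2% rising, so that the share of members that changed (27.5%) was not above that of all genes, while every change was in the same direction. The changes were small. No member changed more than 2-fold, which 6.94% of all genes did, the median log2 fold change of the members was −0.16 against 0.00 for all genes, and 31 of 40 had a negative sign. The libraries of the 2 groups did not overlap for 11 members, 10 of them lower and FEN1 higher, where 43.4% of all genes did not overlap (20.9% lower and 22.5% higher). The genes that fell were the licensing genes CDT1, ORC6, MCM7, MCM5 and MCM3, the clamp loader gene RFC2, LIG1 and RPA2, the nucleotide genes TK1 and TYMS, and BRCA1. Leaving out GFP replicate 1 gave 5 genes that passed (1 of them higher), and leaving out GFP replicate 3, MAFG replicate 1 or MAFG replicate 2 gave 7, 3 and 6. Of all genes, 27.7%, 26.2%, 25.3% and 25.6% passed in these fits.

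CDT1 showed the largest change of the 40 in WM164. It was at 30.3, 24.8 and 28.5 CPM in the GFP libraries and at 17.9, 20.5 and 18.6 CPM in the MAFG libraries, where CPM is scaled to the libraries of that line and is not comparable with another line. Every MAFG library lay below every GFP library, and the log2 fold change was −0.55 (standard error 0.092, 95% interval −0.75 to −0.36, adjusted p = 0.000147). ORC6, a subunit of the origin recognition complex, was at 22.1, 23.0 and 24.0 CPM with GFP and at 15.9, 15.7 and 19.9 CPM with MAFG (log2 fold change −0.42, standard error 0.098, adjusted p = 0.0028). MCM5 was at 76.6, 68.8 and 65.3 CPM with GFP and 55.8, 63.2 and 56.4 CPM with MAFG (−0.26, standard error 0.072, adjusted p = 0.00896), again without overlap. MCM7 fell by 0.27 and MCM3 by 0.19 on the log2 scale, and the other subunits of the ring, MCM2, MCM4 and MCM6, had log2 fold changes of −0.16, −0.14 and −0.11 that did not pass. CDC6 did not pass, at 17.99, 16.5 and 17.5 CPM with GFP and 15.6, 17.9 and 20.6 CPM with MAFG (0.06, adjusted p = 0.728).

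None of the 5 helicase activation genes and none of the 6 polymerase and primase genes passed in WM164, with log2 fold changes between −0.21 and 0.13. LIG1, the ligase that joins Okazaki fragments, was at 25.6, 20.6 and 23.7 CPM with GFP and at 17.7, 18.4 and 19.3 CPM with MAFG (−0.33, standard error 0.093, adjusted p = 0.0103). RPA2, a subunit of the protein that coats single strands, was at 24.0, 21.0 and 19.0 CPM with GFP and 15.9, 17.8 and 18.6 CPM with MAFG (−0.29, adjusted p = 0.0322). For these 2 genes the groups did not overlap, while FEN1, the flap nuclease that acts just before LIG1, was higher in each MAFG library without passing (0.15, adjusted p = 0.167). PCNA was at 46.7, 40.003 and 46.2 CPM with GFP and 41.7, 43.5 and 47.8 CPM with MAFG, a log2 fold change of 0.00 with a 95% interval of −0.16 to 0.17.

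Of the nucleotide genes, TK1 fell by 0.34 on the log2 scale (adjusted p = 0.0193) and TYMS by 0.28 (adjusted p = 0.0498). The TYMS libraries overlapped, at 37.8, 29.6 and 31.8 CPM with GFP and 23.2, 27.8 and 30.5 CPM with MAFG, and its call was lost in 11 of 16 alternative settings. RRM2 was at 98.9, 77.2 and 103 CPM with GFP and 80.6, 74.7 and 89.4 CPM with MAFG (−0.19, adjusted p = 0.128). BRCA1, which repairs breaks at stalled forks and is itself an E2F target, was at 60.1, 47.4 and 52.2 CPM with GFP and 38.7, 40.5 and 50.1 CPM with MAFG (−0.30, adjusted p = 0.025), also with overlapping libraries. None of the 4 cyclin E and E2F genes passed in WM164. CCNE1 was at 4.77, 3.35 and 4.52 CPM with GFP and 4.43, 5.07 and 4.89 CPM with MAFG (0.19, adjusted p = 0.465). CCNE2 was at 3.55, 2.56 and 3.99 CPM and 4.77, 4.30 and 3.61 CPM (0.33, adjusted p = 0.254). E2F1 was at 12.6, 11.4 and 10.98 CPM with GFP and 9.001, 10.1 and 12.6 CPM with MAFG (−0.14, adjusted p = 0.458), and E2F2 at 8.05, 5.41 and 5.53 CPM and 5.82, 5.17 and 5.56 CPM (−0.20, adjusted p = 0.414). All 4 thus had libraries that overlap between the groups, including the genes of the factors that drive the programme.

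The GFP libraries of WM164 differed among themselves by as much as the groups did. The mean log2 CPM of the 40 members, taken from the mean of the 3 GFP libraries, was 0.11, −0.12 and 0.01 in GFP replicates 1, 2 and 3 and −0.19, −0.14 and −0.06 in the MAFG replicates, so that GFP replicate 2 lay among the MAFG libraries. GFP replicate 1 had 34 of 40 members above the GFP mean and GFP replicate 2 had 3. On log2(TPM + 1), where all genes shifted by a median of 0.14 and the members by 0.04, the members' median stayed below that of all genes but no longer below 0, and 0 of the 39 members tested passed.

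With MAFG in SKMEL28 cells, 14 members changed, 7 rising and 7 falling, where 29.9% of all 15523 tested genes changed, 14.6% rising and 15.3% falling. The genes that rose were POLA1, RFC3, DNMT1, RRM1, CDC45, BRCA1 and RFC4, and those that fell were MCM2, POLD1, E2F2, LIG1, ORC1, CDC6 and UHRF1. The median of the members was 0.01 against −0.01 for all genes, and none changed more than 2-fold, which 4.74% of all genes did. The libraries of the 2 groups did not overlap for 17 members, 9 higher and 8 lower, where 43% of all genes did not overlap (21.2% higher and 21.9% lower). Leaving out GFP replicate 1 gave 9 genes, 5 higher and 4 lower, where 22.9% of all genes passed.

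**Figure D2:**
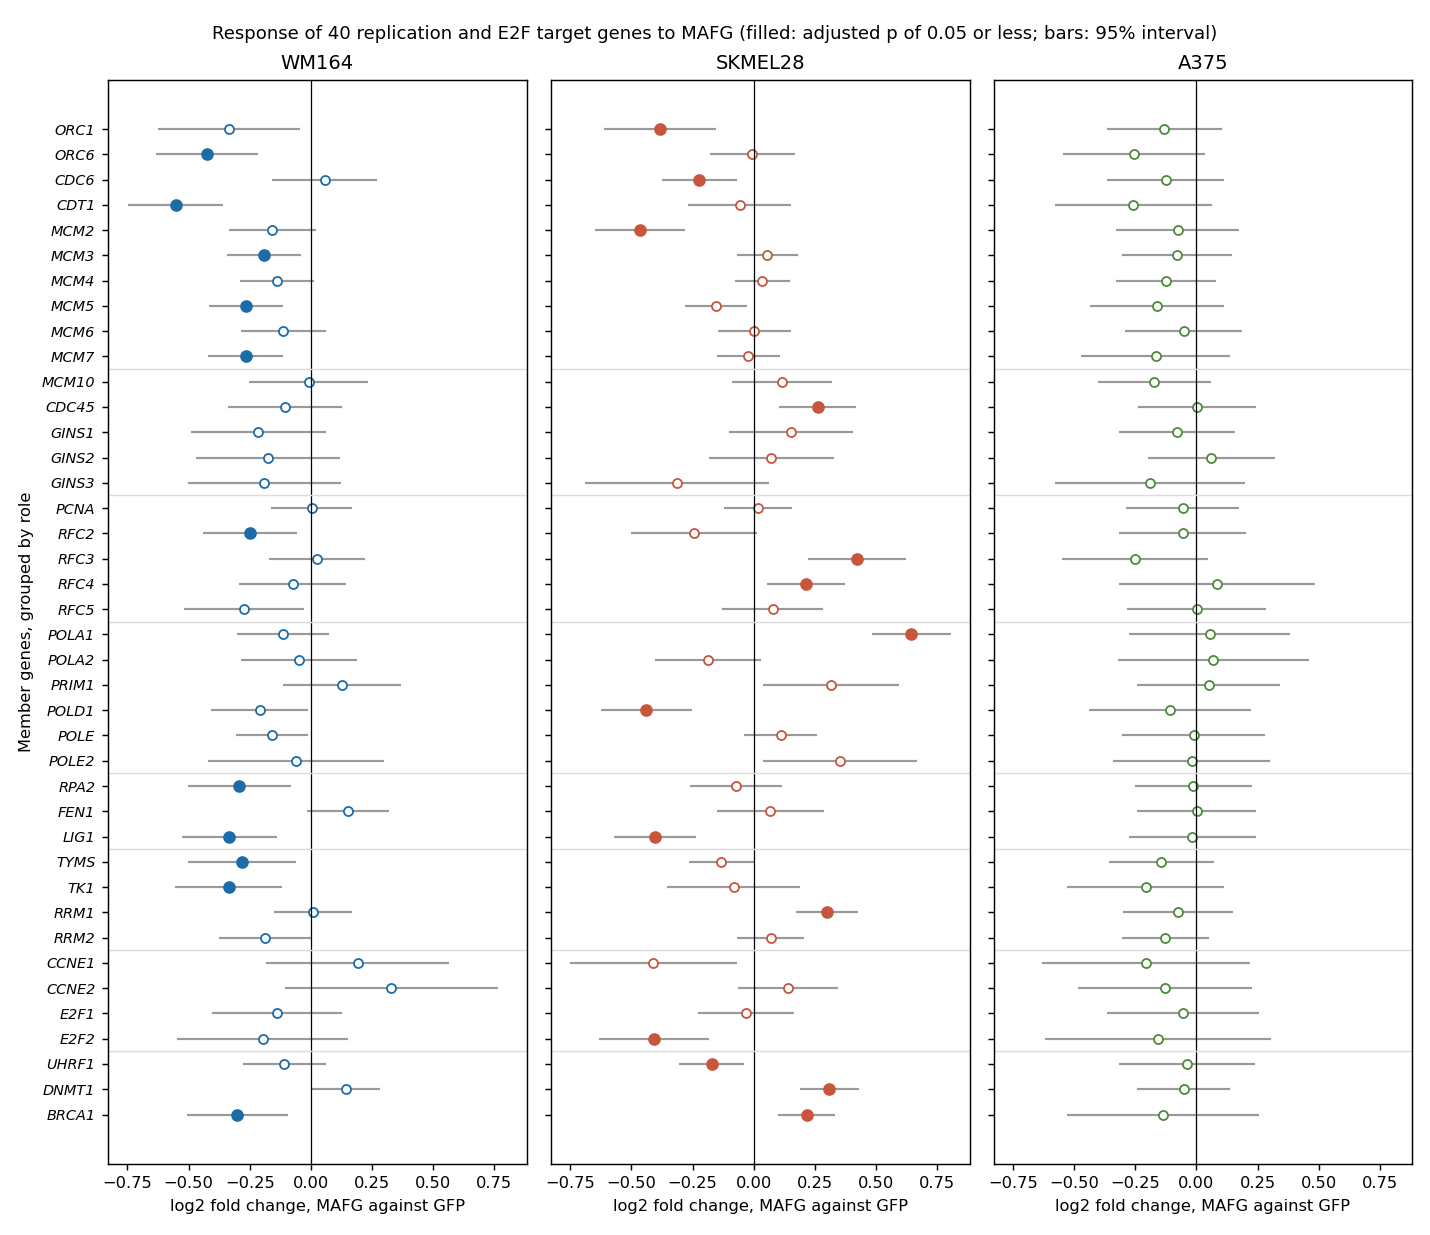
Log2 fold change of each of the 40 genes, MAFG against GFP, in WM164, SKMEL28 and A375, with genes grouped by role on the vertical axis, bars for the 95% interval and filled points for an adjusted p of 0.05 or less. The 11 filled points of WM164 all lie below 0, the 14 of SKMEL28 lie on both sides with POLA1 highest at 0.65 and MCM2 lowest at −0.47, and A375 has 0.

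POLA1, the catalytic subunit of the polymerase that extends each RNA primer, had the largest change of the members in any line. It was at 43.9, 39.6 and 43.96 CPM in the GFP libraries of SKMEL28 and at 65.0, 61.5 and 73.3 CPM in the MAFG libraries, well apart, and its log2 fold change was 0.65 (standard error 0.075, 95% interval 0.49 to 0.81, adjusted p = 9.25e-06). Its partners in the same complex did not pass, with log2 fold changes of −0.19 for POLA2 and 0.32 for PRIM1. POLD1, the catalytic subunit of the polymerase that takes over on the lagging strand, moved the other way, at 25.5, 23.4 and 26.4 CPM with GFP and 18.9, 19.2 and 17.5 CPM with MAFG (−0.44, standard error 0.088, adjusted p = 0.00124), and POLE of the leading strand polymerase stood at 0.11 without passing. LIG1 was at 37.7, 35.4 and 37.1 CPM with GFP and 28.7, 25.3 and 29.3 CPM with MAFG (−0.40, standard error 0.079, adjusted p = 0.00112), and with its fall in WM164 it was the member that passed in the same direction in both lines.

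In the clamp loader, RFC3 was at 20.1, 17.3 and 18.2 CPM with GFP and 24.6, 23.1 and 27.1 CPM with MAFG (0.42, adjusted p = 0.0027), and RFC4 rose by 0.21 (adjusted p = 0.0417), while PCNA was at 101, 95.9 and 111 CPM with GFP and 102, 101 and 110 CPM with MAFG (0.02, 95% interval −0.12 to 0.16). Each called gene of the loader rose without a change in its clamp that passed the test. CDC45, which completes the active helicase, rose by 0.26 (adjusted p = 0.0143), and GINS1, GINS2, GINS3 and MCM10 had log2 fold changes of 0.15, 0.07, −0.31 and 0.12 that did not pass.

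Licensing genes that passed in SKMEL28 all fell. MCM2 was at 40.5, 35.1 and 38.1 CPM with GFP and at 29.0, 24.6 and 28.9 CPM with MAFG (−0.47, standard error 0.086, 95% interval −0.65 to −0.28, adjusted p = 0.000665). The other 5 subunits of the same ring had log2 fold changes between −0.16 and 0.06 that did not pass, and the share of MCM2 in the summed TPM of MCM2 to MCM7 was 5.28 ± 0.32% with GFP and 4.12 ± 0.30% with MAFG (SD, n = 3). ORC1 fell by 0.38 on the log2 scale (adjusted p = 0.0133). CDC6 was at 43.0, 41.8 and 44.6 CPM with GFP and 39.7, 36.5 and 34.7 CPM with MAFG (−0.22, adjusted p = 0.0298). CDT1, ORC6, MCM3, MCM5 and MCM7, which fell in WM164, did not pass in SKMEL28, with log2 fold changes of −0.06, −0.01, 0.06, −0.16 and −0.02. Of the 10 licensing genes, 0 passed the test of the difference between these lines.

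DNMT1 and its recruiter UHRF1 moved apart in SKMEL28. DNMT1 was at 180, 177 and 191 CPM with GFP and at 232, 229 and 218 CPM with MAFG (0.31, standard error 0.057, adjusted p = 0.00063), and UHRF1 fell by 0.17 (adjusted p = 0.0498), a call that was lost in 13 of 16 alternative settings. RRM1, the large subunit of ribonucleotide reductase, was at 111, 99.0 and 106 CPM with GFP and 126, 133 and 131 CPM with MAFG (0.30, standard error 0.06, adjusted p = 0.00117). Its partner RRM2 was at 387, 360 and 408 CPM with GFP and 390, 384 and 437 CPM with MAFG (0.07, adjusted p = 0.475), and TYMS at 96.7, 86.4 and 93.5 CPM and 89.0, 81.4 and 82.2 CPM (−0.13, adjusted p = 0.134). BRCA1 was at 83.5, 81.9 and 82.4 CPM with GFP and 97.2, 96.0 and 94.7 CPM with MAFG (0.22, adjusted p = 0.00714), and it was the member that passed in both WM164 and SKMEL28 with opposite signs. E2F2 was at 19.99, 16.2 and 20.2 CPM with GFP and 14.7, 13.7 and 14.2 CPM with MAFG (−0.41, adjusted p = 0.00794). CCNE1 had the same log2 fold change, −0.41, without passing (adjusted p = 0.0673), at 10.3, 10.5 and 7.91 CPM with GFP and 6.61, 8.66 and 6.32 CPM with MAFG. CCNE2 (15.3, 16.3 and 17.5 CPM with GFP and 17.1, 18.001 and 18.9 CPM with MAFG) and E2F1 (25.9, 23.8 and 26.1 CPM and 27.2, 21.8 and 25.2 CPM) did not pass, with log2 fold changes of 0.14 and −0.03.

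**Figure D3:**
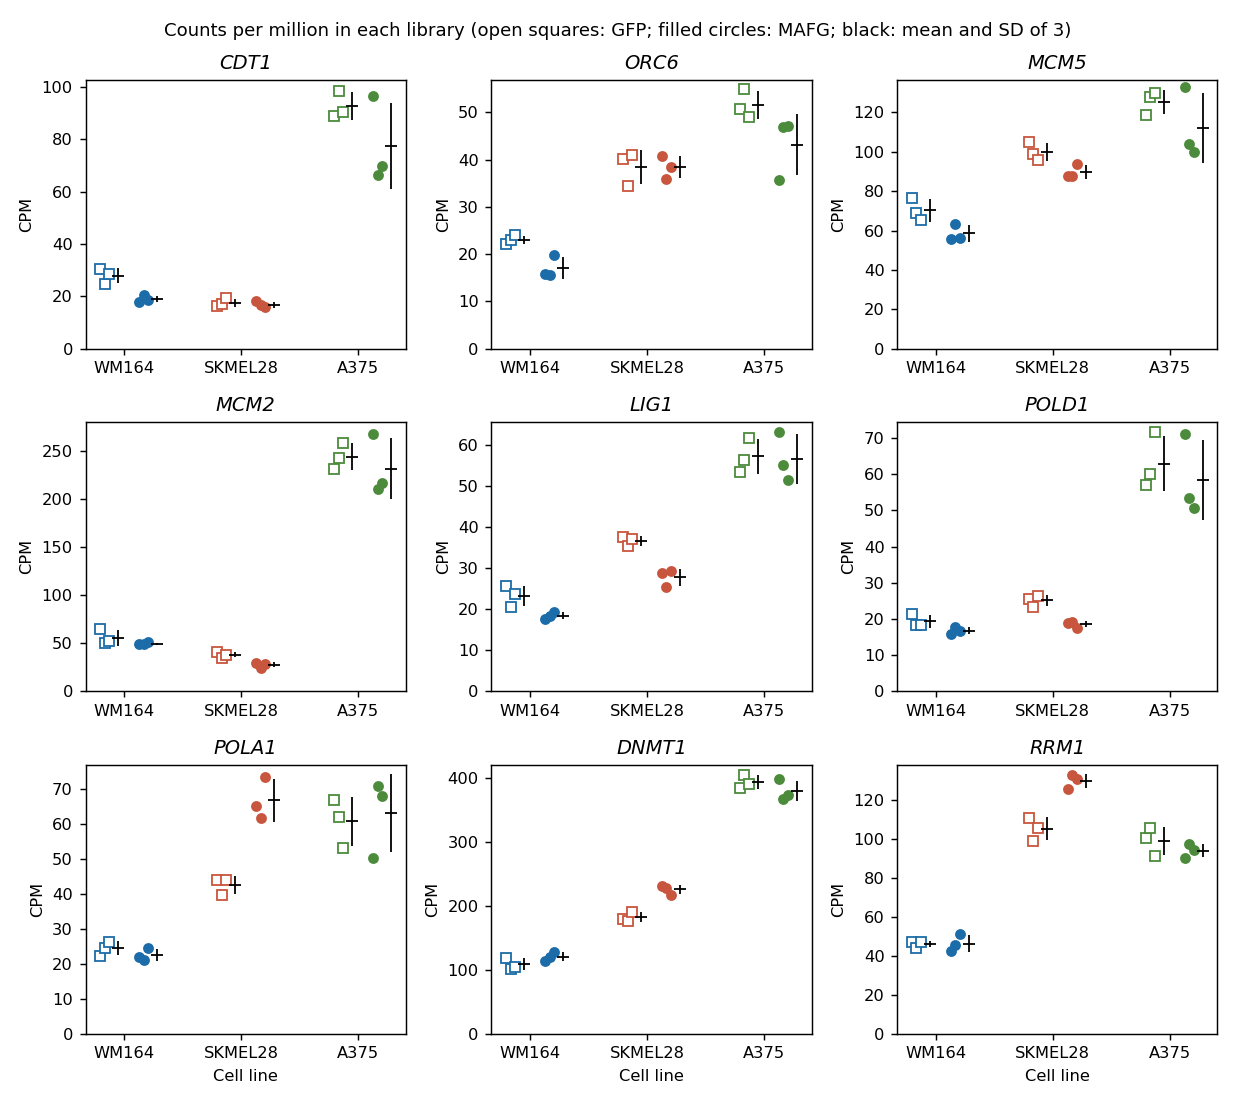
CPM of 9 members in each library of WM164, SKMEL28 and A375, with open squares for GFP, filled circles for MAFG and black marks for the mean and SD of 3 libraries; CPM is scaled within a line, so heights compare within a line only. CDT1, ORC6 and MCM5 separate in WM164, MCM2, POLD1, POLA1, DNMT1 and RRM1 separate in SKMEL28, and LIG1 separates in both.

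The GC content of the transcripts moved with the response of the members in SKMEL28. The 7 members that rose had GC contents of 38.0 to 54.9% (median 42.9%), and the 7 that fell had 44.8 to 64.8% (median 57.4%). Across the 40 members the correlation of GC content with the log2 fold change was r = −0.59 (Spearman's rho −0.67) in SKMEL28, −0.43 (rho −0.37) in WM164 and −0.12 (rho −0.09) in A375. Over all genes r was −0.15 (rho −0.24) in SKMEL28, 0.02 (rho 0.00) in WM164 and −0.03 (rho −0.03) in A375. A trend in the same direction was thus present over all genes in SKMEL28. These correlations are across genes of the same libraries, which are not independent replicates, and are given as a description. After removal of the dependence of each library on GC content and transcript length, a setting chosen after the data were seen, 7 members rose and 4 fell in SKMEL28. There POLD1, E2F2, RFC4 and UHRF1 were no longer past the test, and POLE newly passed as a rise. In WM164 15 fell and 0 rose, with TYMS no longer past the test and ORC1, MCM2, MCM4, POLD1 and POLE newly past it. On log2(TPM + 1), where all genes shifted by a median of −0.14, 1 member rose and 7 fell in SKMEL28. The part of GC content in these changes was not tested beyond that.

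**Figure D4:**
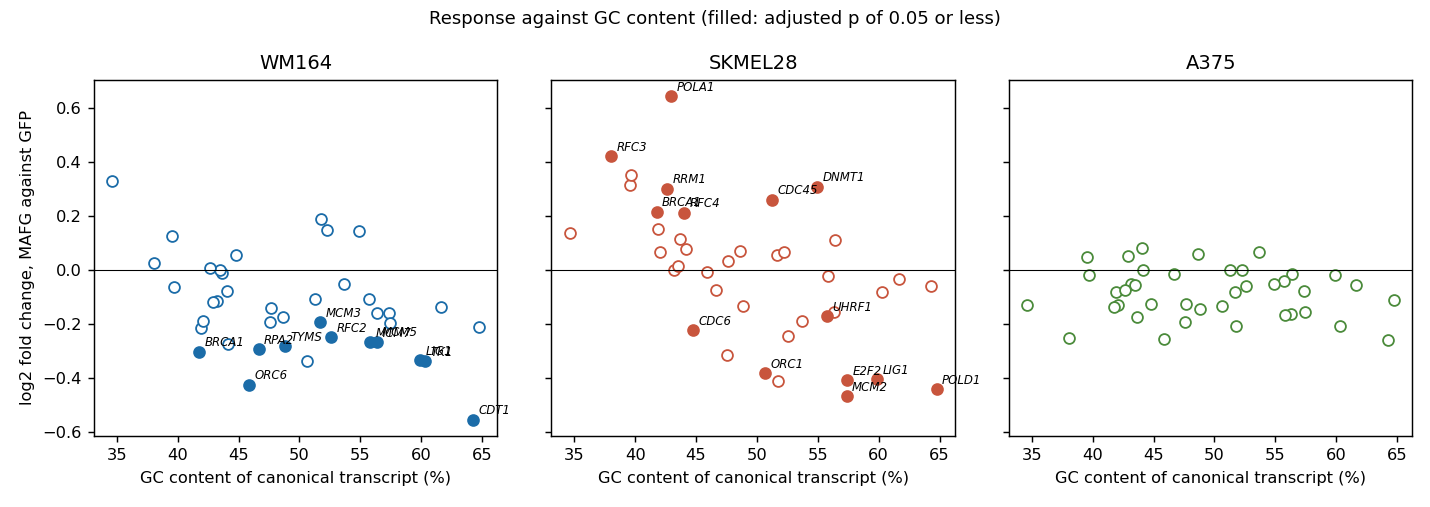
Log2 fold change of the 40 genes, MAFG against GFP, on the vertical axis against the GC content of the canonical transcript in percent, for WM164, SKMEL28 and A375, with filled, named points for an adjusted p of 0.05 or less. In SKMEL28 the genes that rose have a median GC content of 42.9% and those that fell 57.4%.

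With MAFG in A375 cells, 0 of the 40 members passed, where 0.843% of all 15779 tested genes did. The members' median log2 fold change was −0.08 against 0.00 for all genes, with 32 of 40 negative and all values between −0.26 and 0.08. At an unadjusted p under 0.05 the count was also 0 of 40, and DESeq2 gave 0 at an adjusted p of 0.05 or less. The MAFG and GFP libraries did not overlap for 3 members, ORC6 (−0.25), MCM10 (−0.17) and RRM2 (−0.13), all lower, where 12.8% of all genes did not overlap and 5.55% were lower without overlap. No member changed more than 2-fold, which 0.665% of all genes did. RRM2 was at 585, 602 and 570 CPM with GFP and at 530, 540 and 539 CPM with MAFG (adjusted p = 0.981, 95% interval −0.31 to 0.05). PCNA was at 157, 164 and 147 CPM with GFP and 136, 153 and 162 CPM with MAFG (−0.06).

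BRCA1 shows the weight of MAFG replicate 1 of A375, which stood apart over all genes. It was at 83.1 CPM in that library, at 138 and 141 CPM in the other MAFG libraries and at 136, 138 and 123 CPM with GFP, and its log2 fold change was −0.14 with the library and 0.07 without it. MCM2 was at 231, 243 and 259 CPM with GFP and 268, 211 and 216 CPM with MAFG (−0.08), and TYMS at 308, 326 and 332 CPM and 320, 273 and 281 CPM (−0.14). CDC6 (82.7, 76.2 and 71.8 CPM with GFP and 64.4, 73.3 and 73.9 CPM with MAFG) and E2F1 (22.3, 21.6 and 26.5 CPM and 25.8, 21.7 and 20.2 CPM) overlapped as well, and so did CCNE1, CCNE2 and E2F2, with log2 fold changes of −0.21, −0.13 and −0.16. Without MAFG replicate 1, 1 member passed, where 2.4% of all genes did. That member was CDT1, at 88.9, 98.6 and 90.6 CPM with GFP and at 96.4, 66.4 and 69.8 CPM with MAFG, where replicate 1 is the high value, and its log2 fold change was −0.26 with the library and −0.45 without it (adjusted p = 0.0185).

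Whether the response differed between lines was tested in a model of all 18 libraries, whose pairwise contrasts share libraries. POLA1 was the 1 member whose response differed between WM164 and SKMEL28, where 13.7% of all 18767 tested genes did, 6.32% with a lower and 7.39% with a higher response in WM164. Its difference, WM164 minus SKMEL28, was −0.76 (standard error 0.16, 95% interval −1.10 to −0.42, adjusted p = 0.00301), with 22.3, 24.6 and 26.3 CPM with GFP and 22.01, 21.0 and 24.3 CPM with MAFG in WM164 against the rise in SKMEL28. On log2(TPM + 1), where all genes shifted by a median of 0.26, the difference of POLA1 was −0.40 without passing (adjusted p = 0.374). The 3 members that passed on that scale, MCM2, POLD1 and CCNE1, had a higher response in WM164. On counts, the next members were ORC6 (−0.42, adjusted p = 0.0819) and BRCA1 (−0.52, adjusted p = 0.0833), so that the opposite calls of BRCA1 in the 2 lines were not shown to differ at that threshold. With the trend on GC content and length removed, 7 members responded lower in WM164 than in SKMEL28, CDT1 (−0.78), POLA1 (−0.78), BRCA1 (−0.57), POLE (−0.54), MCM7 (−0.35), DNMT1 (−0.34) and MCM3 (−0.30). In that setting 18.5% of all genes differed. ORC6 was at 40.05, 34.4 and 40.9 CPM with GFP and 40.7, 35.9 and 38.5 CPM with MAFG in SKMEL28, and at 50.8, 54.9 and 48.9 CPM and 35.6, 46.9 and 47.0 CPM in A375.

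Against A375, 4 members had a higher response in SKMEL28 and 0 a lower one, where 9.51% of all genes differed, 3.68% higher and 5.83% lower. None of the members differed in response by more than 2-fold, which 4.2% of all genes did here and 5.1% between WM164 and SKMEL28. RFC3 differed most, by 0.67 (standard error 0.15, 95% interval 0.36 to 0.98, adjusted p = 0.00572), with 40.5, 35.2 and 38.9 CPM with GFP and 27.3, 37.0 and 32.0 CPM with MAFG in A375. POLA1 differed by 0.59 (adjusted p = 0.0208), with 66.9, 62.0 and 52.9 CPM with GFP and 50.1, 70.8 and 67.8 CPM with MAFG in A375. DNMT1 differed by 0.36 (adjusted p = 0.0332), with 385, 406 and 392 CPM and 399, 369 and 374 CPM in A375, and RRM1 by 0.37 (adjusted p = 0.0358), with 100, 105 and 91.0 CPM and 90.4, 97.4 and 94.1 CPM in A375. For each of the 4 genes the A375 groups overlapped or lay close together. Leaving out GFP replicate 2 of SKMEL28 gave 1 gene, where 6.84% of all genes passed, and leaving out MAFG replicate 1 of A375 gave 5. Without that A375 library the differences of RFC3 and POLA1 were smaller, at 0.59 and 0.47. Those of DNMT1 and RRM1 were 0.42 and 0.37.

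Between WM164 and A375, 0 members differed in response, where 9.21% of all genes did, 4.52% with a higher and 4.69% with a lower response in WM164, and 4.39% by more than 2-fold. At an unadjusted p under 0.05 there was 1, LIG1 (−0.32, 95% interval −0.63 to −0.02, adjusted p = 0.198), and DESeq2 gave 0. The next were CCNE2 (0.46, adjusted p = 0.242) and RPA2 (−0.28, 95% interval −0.59 to 0.02, adjusted p = 0.285). LIG1 in A375 was at 53.6, 56.4 and 61.8 CPM with GFP and 63.3, 55.1 and 51.5 CPM with MAFG, and RPA2 at 49.8, 53.1 and 59.0 CPM and 56.0, 52.8 and 51.8 CPM, so that the fall of both genes in WM164 was not shown to differ from A375. CCNE2 in A375 was at 17.8, 19.6 and 20.8 CPM with GFP and 13.9, 20.3 and 19.0 CPM with MAFG.

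Other genes of the same pathways gave the following counts. Of all tested genes, 31.8% passed in WM164 (15.6% falling and 16.2% rising). In SKMEL28 29.9% passed (15.3% falling and 14.6% rising), and in A375 0.843%. Of 30 further genes of origins and forks, 8 fell and 3 rose in WM164 (median −0.18), 1 fell and 3 rose in SKMEL28 (median 0.10) and 0 passed in A375. The 3 that rose in WM164 were TOP1 (0.36), POLD4 (0.46) and CDC7 (0.25), and those of SKMEL28 were POLE3 (0.46), DBF4 (0.39) and TOP1 (0.21), with POLE4 falling by 0.45. Of 25 further E2F targets, 9 fell and 1, CHEK1 (0.27), rose in WM164, and in SKMEL28 EZH2 (0.45), CCNA2 (0.36) and BRCA2 (0.21) rose and MSH6 fell by 0.29. These genes are named because the counts are small, after their values were seen. The 11 genes of the E2F and RB families, other than E2F1 and E2F2, included RB1, which rose in WM164 (0.21) and in SKMEL28 (0.33), and E2F7 and TFDP2, which fell in WM164 (−0.37 and −0.67) and in SKMEL28 (−0.35 and −0.39). RBL2 fell in WM164 (−0.26), and in SKMEL28 TFDP1 (0.39) and E2F5 (1.60) rose and E2F4 fell (−0.35).

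Of 12 genes for G1 cyclins, their kinases and inhibitors, 11 were tested within the lines, with 4 rising and 0 falling in WM164, 3 rising and 4 falling in SKMEL28 and 0 passing in A375. Of all genes, 31.8% passed in WM164, 29.9% in SKMEL28 and 0.843% in A375. CDKN1A, which encodes the p21 inhibitor of the cyclin E kinase, was at 4.09, 4.79 and 2.91 CPM with GFP and 6.02, 6.39 and 5.94 CPM with MAFG in WM164 (0.63, adjusted p = 0.0113), and at 6.81, 4.68 and 5.63 CPM and 3.42, 2.94 and 4.63 CPM in SKMEL28 (−0.65, adjusted p = 0.0272). These opposite changes differed between the lines by 1.28 (adjusted p = 0.00277). MKI67, which encodes the Ki-67 protein of cycling cells, fell in WM164 (−0.24, adjusted p = 0.00978) and rose in SKMEL28 (0.56, adjusted p = 4.24e-06), and it was at −0.04 in A375.

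The mitotic genes gave other counts than the replication genes in SKMEL28. Of 20 mitotic genes 15 rose and 0 fell there (median 0.35), against 7 and 7 of the 40 replication genes (median 0.01). Of all genes, 14.6% rose and 15.3% fell there. In WM164 14 mitotic genes fell and 0 rose (median −0.25), against 11 and 0 of the replication genes, where 15.6% of all genes fell and 16.2% rose. On log2(TPM + 1), where all genes shifted by a median of −0.14 in SKMEL28 and 0.14 in WM164, 7 mitotic genes rose and 1 fell in SKMEL28 (median 0.16) and 0 passed in WM164 (median −0.07). In single libraries of SKMEL28, the mean log2 CPM of the mitotic genes, taken from the GFP mean, was 0.30 to 0.37 with MAFG, above all GFP libraries (−0.06 to 0.05), and that of the replication genes was −0.03 to 0.01, within the range of the GFP libraries (−0.06 to 0.04). In A375 MAFG replicate 1 was at −0.23 for the mitotic genes, against 0.08 and 0.09 in its replicates, and at −0.05 for the replication genes, against −0.10 and −0.11. Melanocyte markers moved in the same comparisons, with 5 of 6 falling in WM164, 3 of 6 in SKMEL28 and SOX10 rising in A375, and their part in the replication genes' response was not tested.

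**Figure D5:**
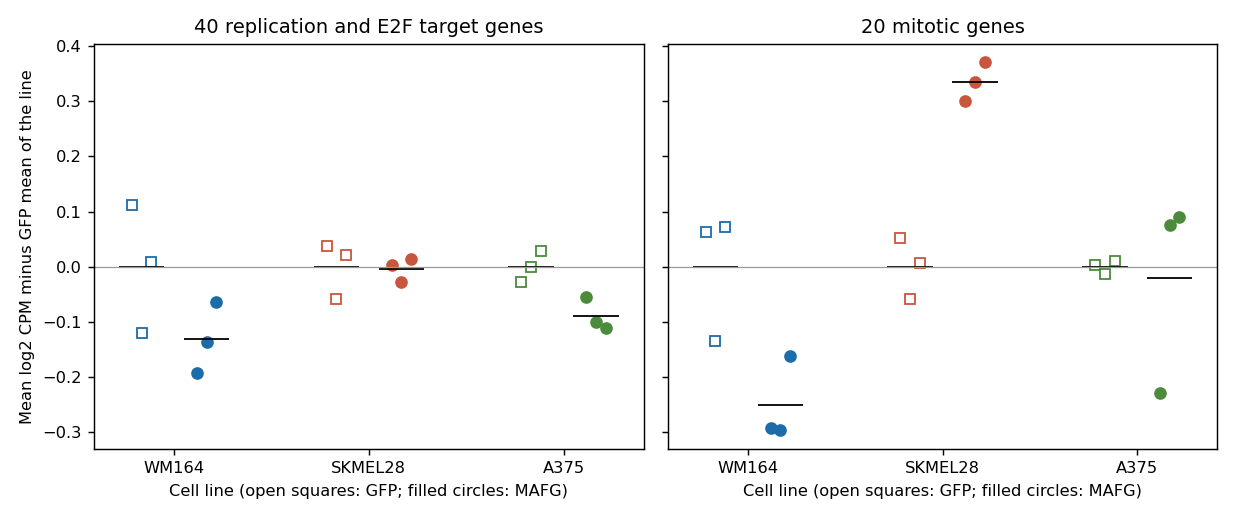
Mean log2 CPM of the 40 replication and E2F target genes (left) and of 20 mitotic genes (right) in each library, as the difference from the GFP mean of the line, with open squares for GFP, filled circles for MAFG and a line for the mean of 3 libraries. In SKMEL28 the MAFG libraries lie at 0.30 to 0.37 for the mitotic genes and at −0.03 to 0.01 for the replication genes.

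Promoter letters were found among members of each kind of response. Among members with a promoter in the table, E2F letters stood in 5 of 9 that fell and 16 of 27 that did not pass in WM164, and in 3 of 7 that rose, 5 of 7 that fell and 13 of 22 that did not pass in SKMEL28. POLA1 and E2F2, which moved in opposite directions in SKMEL28, both held them upstream of the start.

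By the gene annotation (GENCODE release 44, GRCh38), the members lie on 18 chromosomes, and 18 of them share exon bases with another gene, 15 with a gene on the opposite strand and 7 with a gene on the same strand. TYMS (chr18:657653-673578, plus strand) overlaps ENOSF1 and TYMSOS, RFC4 overlaps EIF4A2 and RRM1 overlaps RRM1-AS1, all on the opposite strand, and DNMT1 shares exon bases with S1PR2 and PRIM1 with NACA on the same strand. The use of strand in counting is not stated, so for opposite-strand pairs it is not known whether reads from the shared bases were told apart. How reads from bases shared on the same strand were counted is not stated either. The values of all these members are uncertain to that extent. CDT1 (chr16:88803789-88809258, plus strand), ORC6 (chr16:46689643-46698394, plus strand) and POLA1 (chrX:24693873-24996986, plus strand) share exon bases with no other gene.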

How the data were processed

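RNA-seq of 18 libraries from 3 melanoma lines was used. According to the study's methods, featureCounts was used by the authors to count reads with a unique alignment for each gene, and the submitters' processing notes name cutadapt 1.8.1, STAR 2.7.7a, RSEM 1.3.0, DESeq2 and GRCh38. The deposited counts are not normalized and are whole numbers over 58870 genes, and the TPM values were computed by the authors and deposited with 2 decimals. The labels name a non-stranded library kit and the methods a strand-specific one. The annotation release, and whether counting used strand, are not given in the sources used here. All sample columns were assigned to a group by the labels, and 0 were left unused.

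Within a line, counts of its 6 libraries were fitted to compare MAFG and GFP, and a model of all 18 gave the differences between lines in response and GFP level, with R 4.3.3 and edgeR 4.0.16 (TMM, filterByExpr, quasi-likelihood F test), and p-values were adjusted after Benjamini and Hochberg across every gene tested. The threshold was an adjusted p of 0.05, and the study's further limit of a 2-fold change was counted beside it. CPM was scaled by TMM within a line. The intervals at 95% are those of the log2 fold changes and use the total degrees of freedom of the quasi-likelihood test, prior and residual together. The depth per library sets the precision through the standard errors given. Positions, exon overlaps and GC content came from GENCODE release 44.

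Values by library were given for the 3 members with the smallest adjusted p per line and direction among those that passed without overlap, the 3 with the smallest adjusted p per response difference, and MCM2, PCNA, CDC6, CCNE1, CCNE2, E2F1, E2F2, RRM2, TYMS and BRCA1, with all 40 accounted for by role. The members and lists were chosen with earlier results of these data known. Alternatives were DESeq2 1.42.0, edgeR with DESeq2's size factors, a minimum of 10 counts in each library, the count filter left off, the replicate number as a block, limma 3.58.1 with log2(TPM + 1) or with log2(TPM + 0.1), for genes that reached a TPM of 1 in 3 libraries or for all genes, other sets of libraries in the model, each library left out in turn and, chosen after seeing the data, removal of the dependence of each library on GC content and length. The fits were tested on simulated data with changes larger than any member's response to MAFG and with no trend on GC content. That test therefore does not bear on calls as small as those of the members. Tables and figures were made with Python 3.11.15, pandas 2.3.3 and matplotlib 3.10.9.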

Additional observations from a re-analysis of the deposited data

Results flagged for a closer look

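The response to MAFG differed between lines for 4 members, by the test of the difference itself in the model of all 18 libraries (edgeR, with p adjusted over all genes and a threshold of 0.05). POLA1 differed by −0.76 log2 between WM164 and SKMEL28 (adjusted p = 0.00301), and its difference between SKMEL28 and A375 was 0.59 (adjusted p = 0.0208). RFC3 differed by 0.67 between SKMEL28 and A375 (adjusted p = 0.00572), RRM1 by 0.37 (adjusted p = 0.0358) and DNMT1 by 0.36 (adjusted p = 0.0332). In SKMEL28 each of the 4 genes was higher in 3 of 3 MAFG libraries than in every GFP library, and RFC3 also had a log2 fold change of −0.25 in A375. The difference of POLA1 between WM164 and SKMEL28 and that of RFC3 passed in every setting on counts. On the TPM scales the former did not pass (adjusted p = 0.374 to 0.556), and no member passed for SKMEL28 against A375 on the TPM scale. With the replicate number as a block, POLA1, RRM1 and DNMT1 no longer passed between SKMEL28 and A375 (adjusted p = 0.0506, 0.0847 and 0.106). RRM1 and DNMT1 also lost this call without a count filter (adjusted p = 0.0803 and 0.0593) and in most fits that left out 1 library. Without GFP replicate 2 of A375, for example, their adjusted p was 0.105 and 0.0844, and without GFP replicate 3 of A375 it was 0.017 and 0.0446. POLA1 kept the call in most such fits.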

How the results depend on the processing

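Among the values of named genes that passed the test, 306 of 372 kept their direction and call when 1 library was left out. Under the other settings 444 of 570 did, and 12 changed sign. These totals pool the MAFG responses with the response differences and with the GFP level differences between lines. For the MAFG responses alone, a member that passed kept its call in 5 (TYMS) to 13 (CDT1 and ORC6) of 16 settings in WM164. In SKMEL28 it was 3 (UHRF1) to 15 (MCM2, POLD1 and DNMT1) of 16. A required 2-fold change left 0 members for MAFG in WM164 and SKMEL28 and for the response differences of WM164 and A375 from SKMEL28, 13 for GFP levels of WM164 against SKMEL28 and 18 of SKMEL28 against A375. On log2(TPM + 1), log2(TPM + 0.1) and log2(TPM + 1) without a TPM filter, the counts were 0, 0 and 0 in WM164, 8, 8 and 3 in SKMEL28, 3, 2 and 3 for WM164 minus SKMEL28 in response, all higher where the calls on counts were all lower and with POLA1 no longer past the test, and 0, 0 and 0 for SKMEL28 against A375 in response. On that scale all genes shifted by a median of 0.14, −0.14 and −0.10 in WM164, SKMEL28 and A375 and the members by 0.04, −0.14 and −0.16, and for the response of WM164 minus SKMEL28 by 0.26 and 0.17. In 1 model of 18 libraries 4 passed in WM164 and 8 in SKMEL28. For the response of WM164 minus SKMEL28, DESeq2 gave 2, no count filter 3, the trend on GC content and length removed 7, and the 12 libraries of both lines alone 9. Of all genes, 10.1%, 8.74%, 18.5% and 25.2% passed in these settings. For SKMEL28 minus A375, no count filter gave 2 and the GC setting 7, where 6.8% and 14.6% of all genes passed.

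Same-numbered GFP and MAFG libraries correlated at −0.16 to 0.07 over all tested genes in their deviations from the group means, and at −0.58 to 0.47 over the members. Whether the shared numbers pair the libraries cannot be decided from these values, since each group mean rests on 3 libraries. With the replicate block, 11, 14 and 0 members passed in WM164, SKMEL28 and A375, 1, 0 and 1 for the response differences WM164 minus SKMEL28, WM164 minus A375 and SKMEL28 minus A375, and 31, 38 and 32 for the GFP levels of WM164 against SKMEL28, WM164 against A375 and SKMEL28 against A375.

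With 1 library left out, the counts ranged from 3 (without MAFG replicate 1) to 14 (without GFP replicate 2) in WM164, from 9 (without GFP replicate 1) to 13 in SKMEL28, from 0 to 1 in A375, from 1 to 5 (without MAFG replicate 3 of WM164) for WM164 minus SKMEL28, at 0 for WM164 minus A375, from 1 to 5 for SKMEL28 minus A375, and from 30 to 33, 34 to 39 and 30 to 32 for the GFP levels.

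Values that changed sign were mostly close to 0. PCNA in WM164 was −0.00102 with DESeq2, −0.0043 without a count filter, −0.069 without GFP replicate 2 and −0.067 without MAFG replicate 3, with a highest value of 0.045 when 1 library was left out. PCNA in SKMEL28 was −0.0703 with the GC setting, −0.156, −0.158 and −0.156 on the TPM scales, −0.0303 without GFP replicate 2 and −0.0241 without MAFG replicate 3, with 0.0776 as the highest such value. In SKMEL28 E2F1 was 0.154 with the GC setting and 0.04999 without MAFG replicate 2 (lowest −0.103), CCNE2 was −0.119, −0.133 and −0.119 on the TPM scales, and RRM2 was −0.00293 with the GC setting and −0.348, −0.35 and −0.348 on the TPM scales. On the TPM scales, MCM2 in WM164 was 0.0393, 0.0427 and 0.0393, E2F1 0.0222, 0.0272 and 0.0222, RRM2 0.0398, 0.0415 and 0.0398, BRCA1 0.0237, 0.0253 and 0.0237, MCM3 0.0354, 0.0373 and 0.0354 and LIG1 0.0658, 0.0761 and 0.0658, below the shift of all genes except LIG1 without a TPM filter, where all genes shifted by 0.0418. LIG1 for WM164 minus A375 was 0.18, 0.197 and 0.18, and MCM2 for GFP levels of WM164 against SKMEL28 was −0.0144, −0.0156 and −0.0144. CCNE2 for GFP levels of SKMEL28 against A375 was 0.017 with the GC setting, 0.0858, 0.0943 and 0.0858 on the TPM scales, 0.0255 without GFP replicate 3 of A375 and 0.01 without GFP replicate 1 of SKMEL28, with a lowest value of −0.0948 when 1 library was left out. In WM164 E2F2 was 0.0113 without GFP replicate 1 (lowest −0.304) and CDC6 −0.0635 without MAFG replicate 3 (highest 0.149). In A375 E2F1 was 0.0381 without GFP replicate 3 and 0.0184 without MAFG replicate 3, E2F2 was 0.00426 without GFP replicate 3, and without MAFG replicate 1 PCNA was 0.0121, CCNE2 0.0195 and BRCA1 0.0701, and the lowest values of E2F2, PCNA, CCNE2 and BRCA1 with 1 library left out were −0.304, −0.114, −0.239 and −0.264. The cause of these changes was not tested. With 3 libraries a group, the exact permutation test of a single gene cannot go below p = 0.1.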
